A study of Bos taurus with 12 samples.

Results

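ENSBTAG00000011666 and ENSBTAG00000020105 are 2 of the 22372 genes in a table of gene levels from bovine stromal vascular cells (SVC), the mixed and unsorted primary cells left from subcutaneous fat once the adipocytes are removed, which the labels call MSC. Both were chosen by their measured levels, which were high in the full differentiation medium and near 0 in the medium without rosiglitazone. The question here is what the removal of insulin, or of hydrocortisone and progesterone, did to the same genes. Neither identifier is paired with a gene name in the tables used here, so the genes are given by identifier and nothing is said of what their products do, and marker genes of adipocytes or of other cells could not be looked up to check the label of the cells.

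Cells of 3 donors (A, B and C) were differentiated for 12 days in serum-free medium, 1 library per donor and medium. The reduced differentiation medium (rDM) held insulin at 10 μg/mL, rosiglitazone at 5 μM, hydrocortisone and progesterone. The medium rDM 0% Ins lacked insulin, rDM 0% Ros lacked rosiglitazone and rDM 0% HC/PR lacked both steroids, and each kept everything else. The labels give each replicate letter a batch number of its own, shared by its 4 media. The letters are read here as donors, since cells of 3 donors went into as many experiments, and the column names of the table put Iso before each letter, where the study speaks of isolations of cells. The batches are described as batches of mRNA extraction and cDNA synthesis. The names of the deposited counts give each of the 12 libraries 1 of 2 library numbers, read here as sequencing pools. The labels give neither these pools nor the ages of the donors. Libraries held between 302754 and 1153853 estimated reads of PCR-amplified cDNA. Levels are in CPM, the reads of a gene scaled to the same total in each library, which are not divided by gene length and which the authors had corrected for batch. The table's values are whole counts left by that correction (here adjusted counts, not reads as sequenced), of which a single one was worth between 0.903 and 3.39 CPM.

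Rosiglitazone is a synthetic ligand of PPARγ, the nuclear receptor that pairs with RXR on DNA and switches on most genes of the fat cell programme. Insulin acts through its receptor at the cell surface and favours the uptake of glucose and the making and storage of lipid. Hydrocortisone is a glucocorticoid that binds the glucocorticoid receptor, to which progesterone can also bind, and glucocorticoids are a usual part of adipogenic cocktails. In cells cultured in bulk, a lower level can come from fewer cells of a kind or from less RNA in each cell, which cannot be told apart here.

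In rDM, ENSBTAG00000011666 was at 2828 CPM in donor A, 3071 CPM in donor B and 1862 CPM in donor C. Without rosiglitazone it was at 0 CPM in donors A and C and at 6.12 CPM, which was 2 adjusted counts, in donor B. All rDM libraries were far above all libraries without rosiglitazone, and 11.4% of all genes tested had their 3 libraries without rosiglitazone below every rDM library.

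ENSBTAG00000020105 was at 738.6 CPM in donor A, 1001 CPM in donor B and 843.2 CPM in donor C in rDM. Without rosiglitazone it was at 1.90 CPM, a single adjusted count, in donor A and at 0 CPM in donors B and C. Here too the groups were far apart. These values chose the genes, so they are a description and no test is given. In the fit described below, 5.07% of all genes tested were called without rosiglitazone at an adjusted p under 0.05, 3.27% lower and 1.8% higher.

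**Figure D1:**
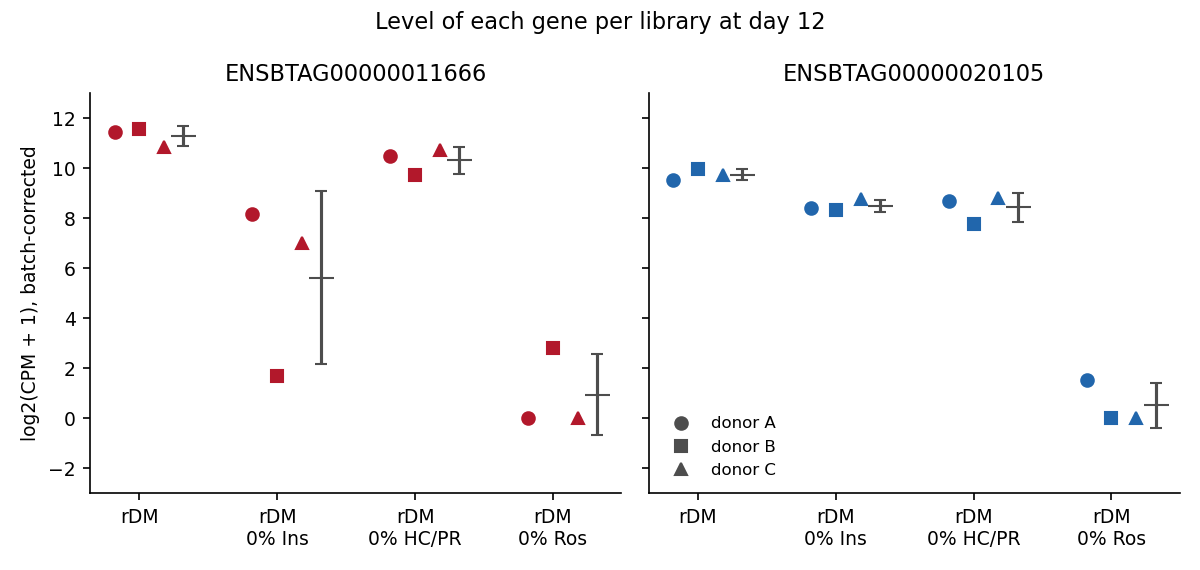
Level of each gene in each library at day 12, as log2(CPM + 1) of the batch-corrected table, by medium and with a symbol per donor. The horizontal bar and whiskers are the mean and SD of the 3 libraries. Both genes were at or near 0 without rosiglitazone, and in rDM 0% Ins the libraries of ENSBTAG00000011666 spread from 1.69 to 8.18 while those of ENSBTAG00000020105 lay between 8.32 and 8.76.

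The same description was made for other genes. Of the 3861 tested genes with a mean of at least 20 CPM in rDM, 62 (1.61%) had at most 3 adjusted counts in each library without rosiglitazone. Both genes were among them, and the next highest of the 62 in rDM, ENSBTAG00000007969, was at 419.6 CPM there. Of the 196 genes with at least the rDM level of ENSBTAG00000020105, the 2 genes kept the smallest shares of that level, 0.0734% for ENSBTAG00000020105 and 0.0789% for ENSBTAG00000011666. Those that followed were ENSBTAG00000046547 at 0.513% and ENSBTAG00000037526 at 0.635%, and these genes were named after their values were seen. The 10 genes nearest to ENSBTAG00000011666 in rDM level, between 2511 and 2770 CPM, kept from 0.513% to 110% without rosiglitazone, with a median of 85.9%. The 10 nearest to ENSBTAG00000020105 kept from 53.8% to 947%, with a median of 87.8%.

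**Figure D2:**
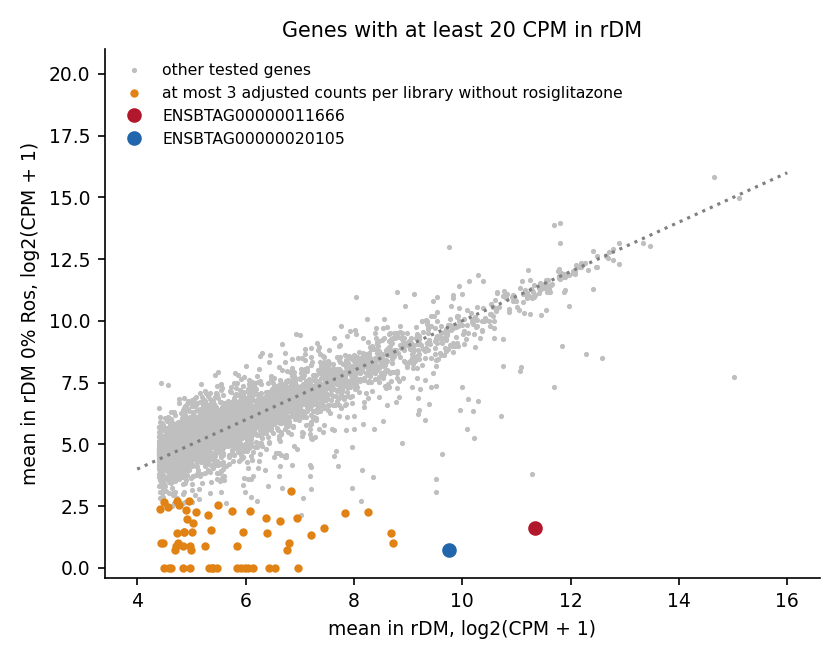
Mean level in rDM against mean level in rDM 0% Ros, both as log2(CPM + 1), for the 3861 tested genes with at least 20 CPM in rDM. The dotted line marks equal levels, the 62 genes with at most 3 adjusted counts in each library without rosiglitazone are in orange or, for the named genes, in red and blue, and ENSBTAG00000011666 and ENSBTAG00000020105 stand furthest to the right among them.

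Without insulin the genes differed in how much of their level was left. ENSBTAG00000011666 was at 290.0 CPM in donor A, 2.23 CPM in donor B and 128.7 CPM in donor C, against 1862 to 3071 CPM in rDM. The groups did not overlap in this batch-corrected table, where 8.03% of all genes tested had their 3 libraries without insulin below every rDM library, and donor B stood apart with a single adjusted count. That left 10.3% of the rDM level of the same donor in A, 0.0727% in B and 6.91% in C, a mean of 5.75% ± 5.19 (SD, n = 3).

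ENSBTAG00000020105 was at 338.6 CPM in donor A, 319.3 CPM in donor B and 433.5 CPM in donor C without insulin, against 738.6 to 1001 CPM in rDM. These groups did not overlap either in the corrected table. For the most alike uncorrected transcript, described further on and not identified with the gene, they did. The level left was 45.8% of rDM in A, 31.9% in B and 51.4% in C, a mean of 43.1% ± 10.04 (SD, n = 3). Donor B kept the smallest share of both genes. The 10 genes nearest in rDM level kept from 13.2% to 98.0% (median 84.3%) around ENSBTAG00000011666 and from 61.1% to 414% (median 106%) around ENSBTAG00000020105.

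Changes were tested with limma on log2(CPM + 1) over 9267 genes, with donors as blocks, and p-values were adjusted over all genes by the Benjamini-Hochberg method. The rDM libraries also entered the choice of the genes, so the comparisons with rDM are not fully apart from it. In rDM 0% Ins, ENSBTAG00000011666 fell by 5.67 on the log2 scale (standard error 1.19, 95% interval -8.24 to -3.11, adjusted p = 0.0329 from limma), the largest fall of the genes tested. That place includes the library of 1 adjusted count in donor B, and no place was computed without it. The mean CPM was 18.4 times lower than in rDM, and the gene was lower in 3 of 3 donors. By this test 1.51% of all genes were called without insulin, 0.852% lower and 0.658% higher, and the median change over all genes was 0.19 on the log2 scale. The call was lost at a pseudocount of 0.1 in place of 1 (log2 fold change -5.83, adjusted p = 0.165 from limma) and when some libraries were left out. From limma the adjusted p was 0.104 without rDM of donor A, 0.19 without rDM of donor B, 0.112 without rDM of donor C and 0.0774 without rDM 0% Ins of donor C, and it was 0.0706 without all of donor A and 0.256 without all of donor C. The call held without the library of 1 adjusted count, with a log2 fold change of -3.44 (adjusted p = 0.0367 from limma), and without all of donor B, with -3.56 (adjusted p = 0.00168 from limma).

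For ENSBTAG00000020105 the log2 fold change without insulin was -1.24 (standard error 0.363, 95% interval -2.02 to -0.46, adjusted p = 0.131 from limma), with lower values in 3 of 3 donors, and did not pass the threshold of 0.05. The spread in this fit was shared with the libraries at 0 or 1 adjusted count without rosiglitazone. In the 6 libraries of this comparison alone, the adjusted p from limma was 0.00819. In the 9 libraries with rosiglitazone alone, a fit chosen after seeing the data, the adjusted p from limma was 0.0278. On the adjusted counts of the table it was 0.0162 in edgeR's quasi-likelihood test and 0.000498 with DESeq2. From limma it was 0.11 with the sequencing pool in the fit, 0.061 with TMM scaling and 0.592 at a pseudocount of 0.1. It was also above the threshold in limma without donors as blocks (0.0892) and with no filter on low values (0.106). The gene passed in 6 alternatives, and in none that left out libraries or donors (adjusted p 0.136 to 0.517 from limma).

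Without HC/PR both genes were lower in every donor than in rDM, and neither difference passed the test. ENSBTAG00000011666 was at 1458 CPM in donor A, 848.6 CPM in donor B and 1722 CPM in donor C. In the corrected table none of these reached the lowest rDM library, at 1862 CPM, which was so for 7.88% of all genes tested. The levels of its most alike uncorrected transcript, described further on, overlapped between these media. The share left went from 27.6% in B to 51.5% in A and 92.5% in C, a mean of 57.2% ± 32.8 (SD, n = 3). The log2 fold change was -0.97 (standard error 1.19, 95% interval -3.54 to 1.59, adjusted p = 0.998 from limma), and it was -2.21 with the sequencing pool added to the fit, again not past the threshold. The spread behind this interval was shared over all 12 libraries, with those near 0 among them, and is not that of this comparison alone. In its 6 libraries alone the log2 fold change of -0.97 had an adjusted p of 0.418 from limma.

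ENSBTAG00000020105 was at 415.1 CPM in donor A, 220.8 CPM in donor B and 451.0 CPM in donor C without HC/PR. In the corrected table all were below the lowest rDM library, at 738.6 CPM, which was so for 7.88% of all genes tested. The levels of its most alike uncorrected transcript, described further on, overlapped between these media. The share left was 56.2% in A, 22.1% in B and 53.5% in C, a mean of 43.9% ± 19.0 (SD, n = 3). Donor B was again lowest for both genes. Its rDM library was in sequencing pool 1 and its rDM 0% HC/PR library in pool 2, while donors A and C each had both in the same pool. Donor B was also lowest for both genes without insulin, where its rDM and rDM 0% Ins libraries were both in pool 1. Why donor B kept less was not tested. Without HC/PR the 10 genes nearest in rDM level kept from 43.6% to 121% (median 104%) around ENSBTAG00000011666. Around ENSBTAG00000020105 they kept from 76.2% to 146% (median 92.0%). The log2 fold change of ENSBTAG00000020105 was -1.30 (standard error 0.363, 95% interval -2.08 to -0.52, adjusted p = 0.55 from limma). In this comparison 0.0216% of all genes, 2 in number, were called, 0.0108% lower and 0.0108% higher, and 498 had an unadjusted p under 0.05. With DESeq2 on the adjusted counts, which called 15 genes, the adjusted p of ENSBTAG00000020105 was 0.0344.

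**Figure D3:**
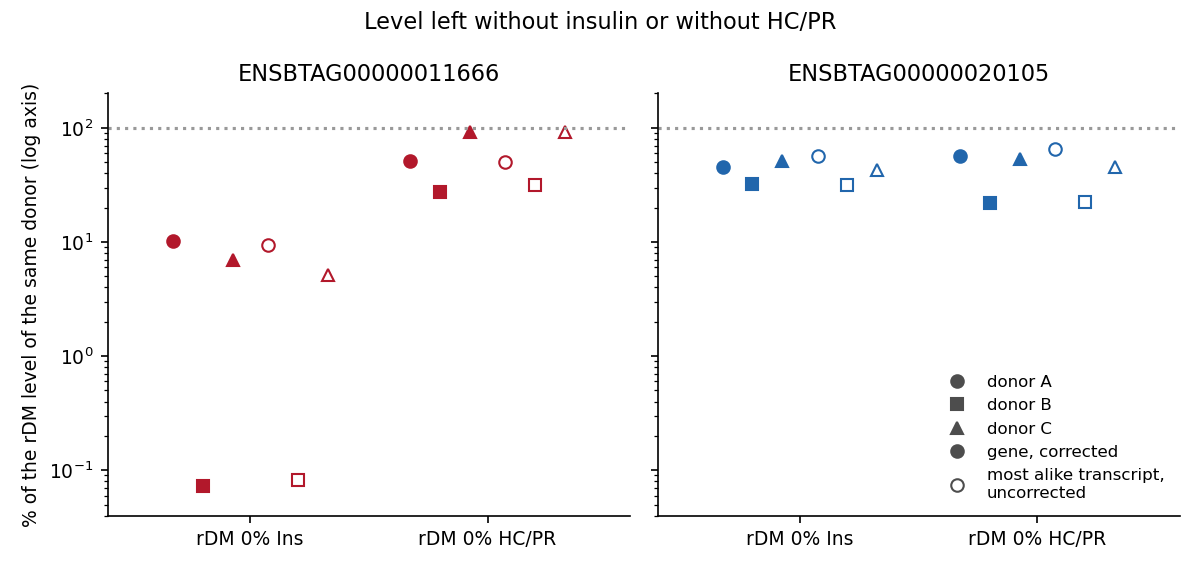
Level in rDM 0% Ins and rDM 0% HC/PR as a percent of the rDM level of the same donor, on a log axis, with a symbol per donor. Filled symbols are the genes of the batch-corrected table and open symbols the most alike transcript of the uncorrected files. ENSBTAG00000011666 kept 0.0727% to 10.3% without insulin and 27.6% to 92.5% without HC/PR, and ENSBTAG00000020105 kept 31.9% to 51.4% and 22.1% to 56.2%.

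The levels of ENSBTAG00000011666 thus came in the order rDM, rDM 0% HC/PR, rDM 0% Ins and rDM 0% Ros. In the corrected table neighbouring media did not overlap except rDM 0% Ins and rDM 0% Ros, where donor B was at 2.23 CPM without insulin and at 6.12 CPM without rosiglitazone, and the difference between rDM and rDM 0% HC/PR did not pass the test. All 3 libraries without HC/PR lay above those without insulin for 6.58% of all genes tested. For ENSBTAG00000020105 the order was rDM, then rDM 0% Ins and rDM 0% HC/PR, whose means of 363.8 ± 61.1 and 362.3 ± 124 CPM (SD, n = 3) lay closer together than the donors did within either medium, and then rDM 0% Ros.

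The media without insulin and without HC/PR were also compared with each other, in the same fit, so that the difference is between these libraries while the spread was estimated over all 12. ENSBTAG00000011666 was higher without HC/PR than without insulin in 3 of 3 donors, by 4.70 on the log2 scale (standard error 1.19, 95% interval 2.14 to 7.26), with an adjusted p of 0.0877 from limma. For ENSBTAG00000020105 the difference was -0.06 (standard error 0.363, 95% interval -0.84 to 0.72, adjusted p = 0.971 from limma), and the interval leaves room for a level from 1.79-fold lower to 1.65-fold higher without HC/PR. In this comparison 1.12% of all genes were called, 0.475% higher without HC/PR and 0.647% lower. The lower share of these calls, 57.7%, was 42.6% with TMM scaling, 41.4% with edgeR and 38% with DESeq2. For ENSBTAG00000011666 the adjusted p was 0.022 with edgeR on the adjusted counts and 0.0403 from limma in the 9 libraries with rosiglitazone, and 0.2 with DESeq2. It was 0.291 from limma with the pool in the fit, and from 0.00369 (without donor B) to 0.479 (without donor C) with libraries or donors left out, past the threshold only without donor B and without rDM 0% Ins of donor A.

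**Figure D4:**
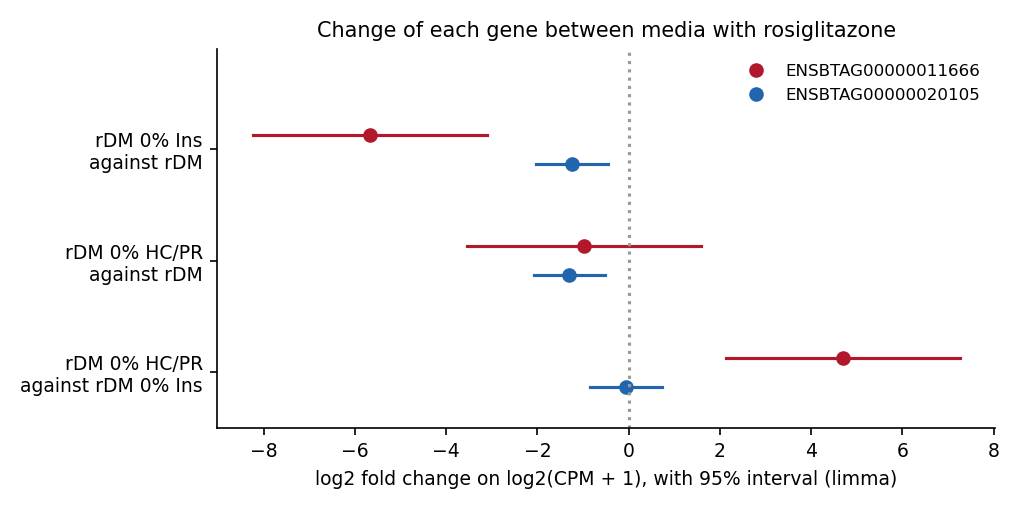
Log2 fold change of each gene on the log2(CPM + 1) scale with its 95% interval from limma, in the 3 comparisons among media with rosiglitazone. The intervals of ENSBTAG00000011666 are wide and exclude 0 in both comparisons with rDM 0% Ins, and those of ENSBTAG00000020105 exclude 0 in both comparisons with rDM, before adjustment over genes.

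To compare the genes directly, the log2 ratio of ENSBTAG00000011666 to ENSBTAG00000020105 was taken in each library with rosiglitazone. In rDM it was 1.94 in donor A, 1.62 in B and 1.14 in C. Without HC/PR it was 1.81 in A, 1.94 in B and 1.93 in C. Without insulin it was -0.22 in A, -6.63 in B and -1.74 in C, below every library of the other media in this corrected table.

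Against rDM of the same donor, the log2 ratio without insulin differed by -2.16 in A, -8.25 in B and -2.89 in C, a mean difference of -4.43 ± 3.33 (SD, n = 3). Without HC/PR the mean difference was 0.33 ± 0.46 (SD, n = 3), with donor A at -0.13. Exact two-sided permutation tests over the 6 libraries of a pair of media gave p = 0.1 for rDM 0% Ins against rDM and for rDM 0% HC/PR against rDM 0% Ins, the smallest p that 3 against 3 allows, and p = 0.3 for rDM 0% HC/PR against rDM. Over these 3 pairs the Benjamini-Hochberg adjusted values of the exact tests were 0.15, 0.15 and 0.3. Within donors the exact test gave 0.25, 0.25 and 0.5, where 0.25 is the smallest p for 3 donors. A single exact permutation test over the 3 media within donors, chosen after seeing the data, gave p = 0.0556, where the smallest p is 0.0278. A lower ratio without insulin was thus seen in 3 of 3 donors but did not pass a test at this number of donors.

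**Figure D5:**
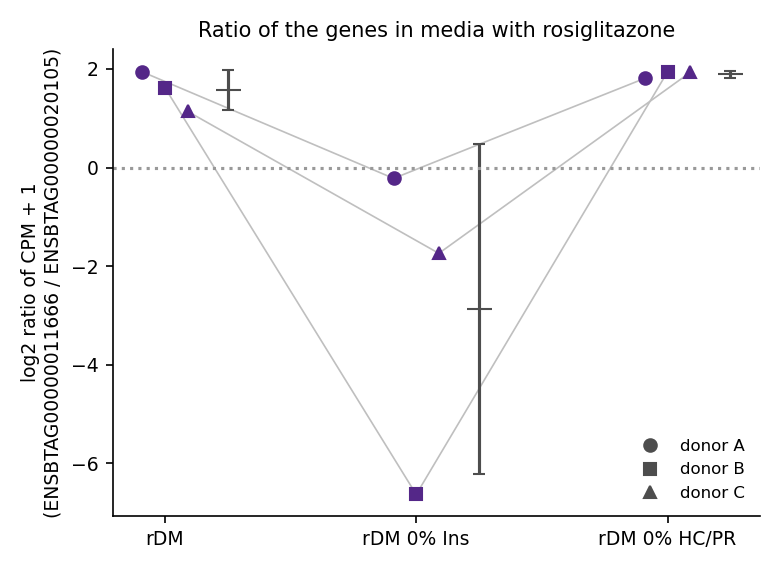
Log2 ratio of ENSBTAG00000011666 to ENSBTAG00000020105 (each as CPM + 1 of the batch-corrected table) in the 9 libraries with rosiglitazone, with a symbol per donor joined by lines, and the mean and SD of each medium. The ratio lay between 1.14 and 1.94 in rDM and rDM 0% HC/PR and between -6.63 and -0.22 in rDM 0% Ins.

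The spread between donors in the corrected table was also computed. Without insulin the coefficient of variation of ENSBTAG00000011666 was 103%, and 0.617% of the 4378 tested genes with at least 20 CPM in that medium varied more. It was 24.7% in rDM and 33.3% without HC/PR, where 30.9% and 30.8% of such genes varied more. For ENSBTAG00000020105 it was 15.3% in rDM, 16.8% without insulin and 34.2% without HC/PR, where 58.2%, 67.3% and 29.6% of such genes varied more. These values come after the correction across donors.

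The table had been corrected across donors before it was deposited, so the values were set beside uncorrected reads. No file pairs genes with transcripts, and the uncorrected transcript with the most alike pattern over 12 libraries was taken for each gene, as a likeness and not as its identity. For ENSBTAG00000011666 this was ENSBTAT00000015490.5, with a Pearson correlation of 0.998 against 0.960 for the next transcript of 4158. It had 1 read in rDM 0% Ins of donor B, 185 in donor A and 24 in donor C, which left 0.0816%, 9.33% and 5.12% of rDM. Its low value in donor B follows from the choice by likeness over the same libraries and is no check on the gene. For ENSBTAG00000020105 it was ENSBTAT00000026782.5, with a correlation of 0.995 against 0.983 for the next, which kept 56.4% in A, 31.6% in B and 42.7% in C without insulin and 65.0%, 22.5% and 45.3% without HC/PR. With edgeR's quasi-likelihood test on 6116 uncorrected transcripts, ENSBTAT00000015490.5 had a log2 fold change of -4.80 without insulin (adjusted p = 0.0994 from edgeR) and ENSBTAT00000026782.5 one of -1.41 (adjusted p = 0.126 from edgeR), where 0.0491% of transcripts were called. In rDM, the uncorrected log2 ratio of these transcripts was 2.82 in A, 1.52 in B and 0.11 in C, and without insulin it was 0.23 in A, -6.52 in B and -2.93 in C. Donor A without insulin lay above donor C in rDM, so these media overlapped. The order within each donor follows from how the transcripts were picked.

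Levels of these transcripts also overlapped between media in the uncorrected reads. ENSBTAT00000026782.5 was at 484.5 CPM in rDM of donor A, below rDM 0% Ins (611.1 CPM) and rDM 0% HC/PR (647.6 CPM) of donor C. ENSBTAT00000015490.5 was at 1549 CPM in rDM of donor C, below rDM 0% HC/PR of donor A at 1715 CPM. The coefficient of variation of ENSBTAT00000026782.5 was 50.4% in rDM, 49.1% without insulin and 59.5% without HC/PR, larger than for ENSBTAG00000020105 in the corrected table. For ENSBTAT00000015490.5 it was 37.3% in rDM, 124% without insulin and 34.2% without HC/PR.

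Genes with a pattern like either gene were sought among 4131 tested genes with a mean of at least 20 CPM, by Pearson correlation of log2(CPM + 1) over the 9 libraries with rosiglitazone, given as a description, since the libraries share media, donors and depth. The highest for ENSBTAG00000011666 were ENSBTAG00000013303 (0.986), ENSBTAG00000046547 (0.974), ENSBTAG00000021516 (0.965), ENSBTAG00000014518 (0.957) and ENSBTAG00000046666 (0.957). ENSBTAG00000013303 was at 36.0 CPM in donor A, 0 CPM in donor B and 16.9 CPM in donor C without insulin, against 136.9 to 152.6 CPM in rDM. ENSBTAG00000021516 was at 16.2 CPM, 0 CPM and 37.3 CPM in the same libraries, against 168.2 to 258.4 CPM in rDM. The library without insulin of donor B was the lowest for these genes, which follows from how they were picked. ENSBTAG00000046547 kept 13.2% of its rDM mean without insulin, 56.7% without HC/PR and 0.513% without rosiglitazone. The last 2 of the 5 were not low without rosiglitazone, where ENSBTAG00000014518 kept 69.3% and ENSBTAG00000046666 kept 89.5%.

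For ENSBTAG00000020105 the highest were ENSBTAG00000003162 (0.968), ENSBTAG00000016296 (0.953), ENSBTAG00000019998 (0.947), ENSBTAG00000016313 (0.944) and ENSBTAG00000013025 (0.939). They kept between 33.6% and 79.3% of their rDM mean without insulin and between 38.9% and 80.4% without HC/PR. ENSBTAG00000016296 also kept little without rosiglitazone, 1.02%, and the other 4 kept 29.5% to 69.5%. The correlation of the 2 genes with each other was 0.525 over the 9 libraries, which put ENSBTAG00000020105 at place 524 of 4131 in likeness to ENSBTAG00000011666, and 0.825 over all 12, at place 140. The lists depend on the measure. By Spearman correlation 1 of the 5 genes was again among the 5 highest for each gene, and at a pseudocount of 10 it was 2 of 5 for ENSBTAG00000011666 and 5 of 5 for ENSBTAG00000020105.

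Over all 12 libraries, which includes the values that chose the genes, the highest for ENSBTAG00000011666 were ENSBTAG00000016864 (0.979), ENSBTAG00000018278 (0.969), ENSBTAG00000055207 (0.967), ENSBTAG00000046547 (0.967) and ENSBTAG00000017779 (0.958). For ENSBTAG00000020105 they were ENSBTAG00000019379 (0.990), ENSBTAG00000021416 (0.985), ENSBTAG00000007077 (0.982), ENSBTAG00000006835 (0.978) and ENSBTAG00000037526 (0.976). Of these, ENSBTAG00000019379, ENSBTAG00000007077 and ENSBTAG00000006835 were at 0 CPM in each library without rosiglitazone, and ENSBTAG00000037526, with 32990 CPM in rDM, kept 46.6% without insulin and 71.0% without HC/PR. By Spearman correlation 0 of the 5 were again among the 5 highest for either gene, and at a pseudocount of 10 it was 2 for ENSBTAG00000011666 and 1 for ENSBTAG00000020105.

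Set beside the 62 genes with at most 3 adjusted counts in each library without rosiglitazone, the genes lay at different places for insulin. These 62 genes kept a median of 35.7% of their rDM mean without insulin, and 3 kept less than the 5.42% of ENSBTAG00000011666, while 33 kept less than the 42.3% of ENSBTAG00000020105. Without HC/PR the median was 64.0%, and 21 kept less than the 51.9% of ENSBTAG00000011666 and 9 less than the 42.1% of ENSBTAG00000020105. These are places among genes picked for a high level in rDM and loss without rosiglitazone, with no test, and levels below rDM are partly fixed by that choice.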

How the data were processed

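For counts the authors relied on Salmon, after Minimap2 had aligned the Nanopore reads against bovine transcripts of the ARS-UCD1.2 build. They deposited estimated counts per transcript, uncorrected, and a table of CPM per gene made with tximport and ComBat-seq. All 12 columns of this table matched a library by title, 0 columns were left out, and 100% of the values were whole multiples of the value of 1 count within 0.01 counts. These recovered counts are ComBat-seq adjusted counts, not reads as sequenced, and summed to between 94.7% and 98.3% of the estimated counts. Whether ComBat-seq was told which medium each library had is not given in the sources used here.

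The 9267 of 22372 genes that reached 5 CPM in 3 or more libraries were tested with limma 3.58.1 (trend, pseudocount of 1, donor as a block, all 12 libraries, Benjamini-Hochberg adjusted p under 0.05). Fold changes on the log2(CPM + 1) scale understate changes of low genes. edgeR 4.0.16 and DESeq2 1.42.0 in R 4.3.3 were run on these adjusted counts, and edgeR on uncorrected transcripts with estimated counts rounded. Same-donor libraries deviated together in the uncorrected transcripts (correlation 0.194 to 0.593 over 18 pairs), and the labels give each replicate letter 1 batch. In the corrected table the correlation was -0.345 to 0.0411, so this shared deviation was no longer seen there. The same-donor shares, the donor blocks and the tests within donors all use the corrected table. That a letter is a donor is read from the column names, which put Iso before it, and from there being as many donors as experiments. On simulated data for rDM 0% Ins against rDM over 8812 genes, limma found 77% of 4-fold and 13% of 2-fold changes, and 5.26% of the genes it called were unchanged ones. The simulation had no donor differences, no batch correction and no genes near 0 in a single medium, and only rDM 0% Ins was changed. These shares need not hold for the corrected table.

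The genes, the lists and the tests were chosen with earlier results of these data known. The rule for naming genes took the 2 genes, the 5 most alike to each, their neighbours in rDM level and members of pathway lists. No identifier had a name in the RefSeq table (0 of 22372), so the pathway lists were not analysed here.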

Additional observations from a re-analysis of the deposited data

How the results depend on the processing

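Counts of genes called are given here in the order without insulin, without HC/PR, without HC/PR against without insulin, and without rosiglitazone, where the values above are 140, 2, 104 and 470. With no replicate block, 296, 230 and 742 genes were called in the first, the third and the last, and 324, 180 and 803 with edgeR and no replicate block on adjusted counts. The replicate block changed no call of either gene in limma. With the donor and the library pool in the fit the counts were 1, 41 and 304 in the last 3, and in the 6 libraries of each comparison alone 241 and 10 in the first 2. Without HC/PR, 1 gene was called at a pseudocount of 0.1, 4 at a pseudocount of 10, 10 with no filter on low values, 1 with TMM scaling, 15 with DESeq2 and 5 in the 9 libraries with rosiglitazone. Uncorrected transcripts gave 3, 0 and 9 in edgeR, and for the 0 without HC/PR 248 of 6116 had an unadjusted p under 0.05. TMM scaling moved the lower share of calls without insulin from 56.4% to 74.7% and the median change over all genes from 0.19 to -0.02 on the log2 scale. Leaving out libraries or donors gave 9 to 165, 1 to 4, 12 to 155 and 201 to 390 genes, and the lowest of the first, the third and the last came without donor C.

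ENSBTAG00000011666 was lower without insulin under every alternative run on the gene itself and past the threshold in 13 of them. It was not past it at a pseudocount of 0.1 (log2 fold change -5.83, adjusted p = 0.165 from limma), and leaving out libraries or donors gave -7.05 to -3.44 with adjusted p from 0.00168 to 0.256 in limma. ENSBTAG00000020105 was lower without insulin under every alternative run on the gene itself and past the threshold in 6: -1.22 at a pseudocount of 10, -1.24 in the 6 libraries and in the 9 with rosiglitazone, -1.52 in edgeR, -1.48 in edgeR with no replicate block and -1.51 in DESeq2. Leaving out libraries or donors gave -1.55 to -0.91. Without HC/PR, ENSBTAG00000020105 passed in DESeq2 (-1.30), and left-out libraries gave -1.61 to -0.87 for it and -1.40 to -0.39 for ENSBTAG00000011666. Between rDM 0% HC/PR and rDM 0% Ins, ENSBTAG00000011666 passed at a pseudocount of 10 (4.02), with no filter, in the 6 libraries and in the 9 libraries (4.70 in each), and in edgeR with (3.68) and without (3.37) the block, and left-out libraries gave 2.47 to 6.08. The difference of ENSBTAG00000020105 there, near 0, changed sign with the pool (0.24), TMM (0.15), edgeR with (0.20) and without (0.23) the block, DESeq2 (0.20) and the alike transcript (0.13), and ranged from -0.30 to 0.19 with libraries left out. The alike transcripts, -4.80 without insulin for that of ENSBTAG00000011666 (adjusted p = 0.0994 from edgeR), have directions that follow from how they were picked. The log2 ratio of the genes kept its direction at other pseudocounts and without each donor, at -5.57 to -2.52 without insulin against rDM. The fits in the 9 libraries, in edgeR with no replicate block and on uncorrected transcripts were chosen after seeing the data. The cause of these changes was not tested. Levels from uncorrected counts summed per gene were not run, since transcripts were not assigned to genes, and at 1 adjusted count depth limits the lowest values.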
